A study of Homo sapiens with 6 samples.

Results

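The genes described here are the human small RNA processing and Argonaute genes, the machinery that makes microRNAs and loads and uses microRNAs and siRNAs. They were chosen by name, with earlier results of these data known: AGO1, AGO2, AGO3, AGO4, DICER1, DROSHA, DGCR8, XPO5, TARBP2 and TNRC6A, 10 of the 58174 genes in the deposited gene table. All 10 were found by Ensembl identifier and symbol, and all 10 had at least 0.5 TPM in at least 1 group. RNA was sequenced from AGS, a cell line established from a human gastric adenocarcinoma, in 6 libraries. By the titles and the study's methods, the cells of 3 of them (si-NC) received a negative control siRNA. Those of the other 3 (si-FTO) received an siRNA against FTO, the demethylase that removes m6A from RNA. By genotype the labels call the si-NC cells wild type and the si-FTO cells FTO-/-. The titles, however, name si-NC and si-FTO, and the study's methods describe transfection of siRNA duplexes with a lipid reagent. The same methods also state that stable cell lines were made with lentivirus. The group means cannot tell these descriptions apart. If the cells were transfected with siRNA, both groups received a small RNA that itself uses part of the machinery described here. No library of untransfected cells was analysed here.

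The values are TPM, which gives each gene as a fraction of the whole pool of transcripts and is corrected for their length, so levels of different genes within a group can be set side by side. There is a single mean per group, so no spread between libraries and no error could be computed here. No test was run on any difference, the authors' own comparison columns were not used, and the sequencing depth is unknown. Differences are log2 ratios, si-FTO over si-NC, of the group means with 1 TPM added to each, a scale that understates the change of low genes. A negative value means lower in si-FTO. Values of 0.0001 TPM were read as 0 and such genes are called listed at 0. Over the 20493 genes with at least 0.5 TPM in at least 1 group, the median log2 ratio was -0.20. Among genes with at least 1 TPM in each group the median ratio was shifted by -0.17 on the log2 scale, and the differences of the 10 genes are also given relative to that shift.

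MicroRNAs are cut out of longer transcripts. In the nucleus the Microprocessor, formed by the RNase DROSHA and its RNA-binding partner DGCR8, releases a hairpin, which exportin-5 (the product of XPO5) carries to the cytoplasm. There DICER1, with its partner TARBP2, removes the loop, and 1 strand of the duplex is kept by an Argonaute protein. The Argonaute finds targets mainly through the seed of the small RNA, bases 2 to 8, and recruits a GW182 protein such as TNRC6A, which brings in the enzymes that shorten the poly(A) tail and block translation. AGO2 is the Argonaute known for slicing fully paired targets, the activity on which knockdown by siRNA depends. Mature microRNAs were not measured in these libraries.

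FTO, the gene named in the si-FTO titles, had a mean of 33.1 TPM in si-NC against 7.27 TPM in si-FTO, or 21.9% of the control level. The labelled tissue was then checked against marker genes. Of 16 gastrointestinal epithelial markers, 10 passed the minimum of 0.5 TPM, and their summed level was 91.4 TPM in si-NC against 5139 TPM in si-FTO. KRT18 was the most abundant of them in si-NC with 52.1 TPM and reached 1851 TPM in si-FTO, and KRT8 had 10.8 TPM and 3139 TPM. ELF3, MUC1 and CLDN7 were also at least 2-fold higher in si-FTO, where they reached 93.3, 31.0 and 14.8 TPM, as were CLDN3 and CLDN4 at under 3 TPM, whereas GATA6 (20.3 and 2.54 TPM) and CDH1 (3.67 and 0.685 TPM) were at least 2-fold lower. EPCAM, a defining epithelial gene, had only 1.22 TPM in si-NC against 0.113 TPM in si-FTO. KRT19, KRT20, TFF1 and TFF2 were listed at 0 in si-NC and did not exceed 0.130 TPM in si-FTO, and CDH17 did not exceed 0.00634 TPM in either group. MUC5AC, the mucin of the gastric surface, had 0.00251 TPM and 0.334 TPM. The markers thus divide. The keratins KRT8 and KRT18 with ELF3, MUC1 and CLDN7 fit an epithelial line in si-FTO and were far lower in si-NC, whereas EPCAM, CDH1 and GATA6 were lower in si-FTO than in si-NC. The gastric markers TFF1, TFF2 and MUC5AC were at or near 0 in each group, which goes against the labelled tissue in both. The groups are called here by their labels only. An effect of FTO depletion and a difference between the cells that the groups were made from cannot be told apart with these values. That limit applies to every ratio of si-FTO over si-NC given here.

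Markers of other cell types moved with the groups too. The 10 mesenchymal markers summed to 581 TPM in si-NC against 828 TPM in si-FTO, with VIM the most abundant in each (440 and 752 TPM). CDH2 had 53.7 TPM in si-NC against 1.25 TPM in si-FTO, and TWIST1, FN1, COL3A1 and ZEB2 were also at least 2-fold lower, whereas COL1A1 was higher. Relative to the shift ZEB2 fell short of 2-fold, at -0.98. After quantile normalization both ZEB2 and COL3A1 fell short of it, each at -0.97. The 10 neuronal markers summed to 151 TPM in si-NC against 17.2 TPM in si-FTO. NEFL, the most abundant of them in si-NC, had 62.7 TPM there and was listed at 0 in si-FTO. NEFM and GAP43 had 49.9 and 5.01 TPM and were likewise listed at 0, and SYP and INA were at least 2-fold lower. SNAP25 was higher in si-FTO, and STMN2 was listed at 0 in each group. The 6 blood cell markers summed to 10.6 and 4.83 TPM with HBA1 the most abundant, and PTPRC was listed at 0 in each group. In bulk RNA, fewer cells of a type and less RNA per cell cannot be told apart. What part these marker differences have in any difference described below was not tested.

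The microRNAs that the results refer to are shown here because the levels of their host transcripts, or of genes holding matches to their seed, are given further on. The sequences are those of RefSeq (GRCh38.p14), 5′ to 3′, with the seed (bases 2 to 8) in capitals. The let-7 microRNAs share 1 seed, as do miR-221 and miR-222, and miR-17 and miR-20a, and miR-99a and miR-100.
let-7a-5p: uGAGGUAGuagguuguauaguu
let-7b-5p: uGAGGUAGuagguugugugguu
let-7c-5p: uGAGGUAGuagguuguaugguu
miR-99a-5p: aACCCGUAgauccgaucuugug
miR-100-5p: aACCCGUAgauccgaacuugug
miR-125b-5p: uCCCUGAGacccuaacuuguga
miR-17-5p: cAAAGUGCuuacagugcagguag
miR-20a-5p: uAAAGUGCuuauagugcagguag
miR-221-3p: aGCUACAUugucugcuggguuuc
miR-222-3p: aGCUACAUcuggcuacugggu
miR-503-5p: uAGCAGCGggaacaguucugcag
miR-34a-5p: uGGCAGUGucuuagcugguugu
miR-675-5p: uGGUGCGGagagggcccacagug
miR-3618: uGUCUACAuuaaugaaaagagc
miR-1306-5p: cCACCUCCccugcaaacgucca
miR-1306-3p: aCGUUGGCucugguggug

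Of the 10 genes, 6 were lower in si-FTO, 3 were higher, and AGO3 had the same level in each group to 3 digits. Of all genes compared 59.7% were lower and 39.8% higher, so 6 of 10 lower is near the background. AGO1 had the largest difference and was the only 1 of the 10 past 2-fold, in the lower direction. Over all genes compared, 17.0% were at least 2-fold lower and 11.4% at least 2-fold higher, so a count of 1 lower and 0 higher out of 10 is near or under the background. At 1.5-fold, 3 of the 10 (AGO1, DGCR8 and DICER1) were lower and 0 higher, beside 31.2% lower and 18.8% higher among all genes compared. The median log2 ratio of the 10 was -0.38, compared with -0.20 for all genes compared. Relative to the shift between the groups the median of the 10 was -0.20, with 0 genes past 2-fold (0 also after quantile normalization), 2 at least 1.5-fold lower (AGO1 and DGCR8) and 1 at least 1.5-fold higher (DROSHA). On that scale 13.8% of all genes compared were at least 2-fold lower and 13.9% higher, and 24.3% were at least 1.5-fold lower and 23.7% higher, so the counts of the 10 are near or under the background there too. After quantile normalization 14.2% were at least 2-fold lower and 13.7% higher. Their levels spanned 8.40 to 128 TPM in si-NC and 6.85 to 108 TPM in si-FTO. The 10 levels summed to 459 TPM in si-NC against 405 TPM in si-FTO.

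**Figure D1:**
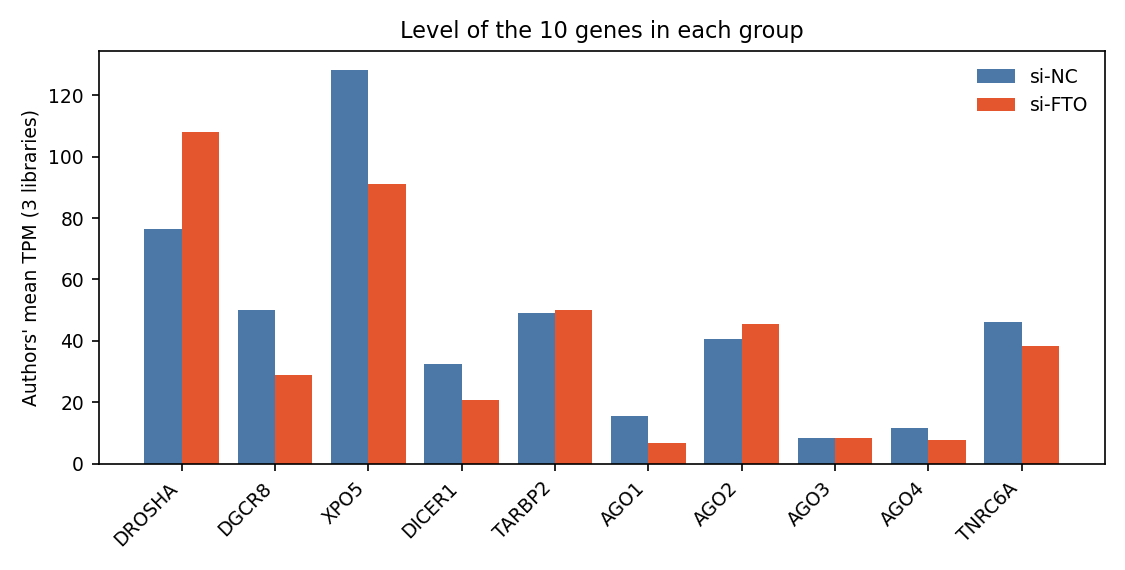
Bars give the authors' mean TPM of each of the 10 genes in si-NC (blue) and si-FTO (orange), from 3 libraries per group; there is 1 mean per group and so no error bar. XPO5 is the tallest bar in si-NC (128 TPM) and DROSHA in si-FTO (108 TPM), and AGO1, AGO3 and AGO4 are the lowest in each group.

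The order of the levels differed between the groups. In si-NC it ran XPO5, DROSHA, DGCR8, TARBP2, TNRC6A, AGO2, DICER1, AGO1, AGO4 and AGO3. In si-FTO it ran DROSHA, XPO5, TARBP2, AGO2, TNRC6A, DGCR8, DICER1, AGO3, AGO4 and AGO1. DGCR8 thus went from place 3 to place 6 and AGO1 from place 8 to place 10, while DICER1 held place 7 in each. Which neighbours in these orders differ by more than the spread between libraries cannot be said, since that spread is unknown here.

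The subunits of the Microprocessor differed in opposite directions. DROSHA, the RNase III enzyme that cuts primary microRNA transcripts, had 76.4 TPM in si-NC against 108 TPM in si-FTO, with a log2 ratio of 0.49, the highest of the 10. DGCR8, which binds the hairpin and places the cut, had 50.2 TPM in si-NC against 29.1 TPM in si-FTO, with a log2 ratio of -0.77. Relative to the shift the values were 0.66 for DROSHA and -0.60 for DGCR8. The level of DROSHA over that of DGCR8 was 1.52 in si-NC against 3.70 in si-FTO. Of the 20493 genes compared, 78.6% had a lower log2 ratio than DROSHA and 23.9% a lower one than DGCR8.

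DGCR8 lies at chr22:20067744-20099400 of GRCh37 on the plus strand, and DROSHA at chr5:31400601-31532303 on the minus strand. The DGCR8 messenger RNA carries hairpins of its own, which the Microprocessor is known to cut, a loop by which the complex limits its own subunit. In the canonical DGCR8 transcript the sequence of miR-3618 shown above was found in exon 2 of 14, in the 5′ UTR, at chr22:20073320-20073341. The sequences of miR-1306-5p and miR-1306-3p were found in the same exon within the coding sequence, at chr22:20073595-20073616 and chr22:20073635-20073652. Gene-level TPM does not tell cut from uncut DGCR8 transcripts.

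TRMT2A, a tRNA methyltransferase gene on the opposite strand that shares 3 exonic bases with DGCR8, had 68.1 TPM in si-NC against 41.4 TPM in si-FTO, with a log2 ratio of -0.71. The noncoding gene ENSG00000243762, also on the opposite strand, shares 526 exonic bases with DGCR8, 7.18% of those of DGCR8. It had 0.493 TPM in si-NC against 0.00272 TPM in si-FTO. RANBP1, a partner of the export factor Ran, starts 4.06 kb beyond DGCR8 on the same strand and had a log2 ratio of -1.11. Of the 50 nearest compared genes around DGCR8, 38 were lower and 12 higher, with a median of -0.35, but of the 20 nearest 11 were lower and 9 higher, with a median of -0.15, above the -0.20 of all genes. Around DROSHA, 36 of the 50 nearest compared genes were higher in si-FTO, with a median log2 ratio of 0.59, above the 0.49 of DROSHA itself, but the median of the 20 nearest was 0.46, below it.

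XPO5 encodes the carrier that takes precursor hairpins out of the nucleus with Ran bound to GTP. It was the most abundant of the 10 genes in si-NC with 128 TPM and had 91.1 TPM in si-FTO, with a log2 ratio of -0.49, or -0.32 relative to the shift. XPO5 lies at chr6:43490072-43543775 on the minus strand. It shares 348 exonic bases, 4.10% of its own, with POLR1C on the opposite strand, an RNA polymerase subunit gene with 70.0 TPM in si-NC against 64.2 TPM in si-FTO. Whether the authors' counting used the strand is not given in the sources used here, so reads in that overlap could have been assigned to either gene.

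DICER1, which cuts precursor hairpins and long double-stranded RNA, had 32.5 TPM in si-NC against 20.7 TPM in si-FTO, with a log2 ratio of -0.63. TARBP2, the double-stranded RNA-binding partner of Dicer, had 49.0 TPM and 49.95 TPM, a log2 ratio of 0.03. Relative to the shift they were at -0.46 and 0.20. The level of DICER1 over TARBP2 was 0.663 in si-NC against 0.414 in si-FTO. DICER1-AS1, a noncoding gene that shares 80 exonic bases with DICER1 on the opposite strand, had 6.55 TPM in si-NC against 4.23 TPM in si-FTO. TARBP2 shares 13.2% of its exonic bases with the antisense gene ENSG00000270175 (4.62 and 5.71 TPM), the largest such share among the 10 genes.

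The DICER1 transcript is known as a target of let-7, which its own protein makes. A match to the let-7 seed, the letters CTACCTC on the sense strand, was sought in the annotated transcripts of GRCh37. The 3′ UTR of the canonical DICER1 transcript held 0 matches in 4270 bases, and its coding sequence held 4. Of the genes compared with an annotated 3′ UTR, 14% had at least 1 match in the coding sequence and 0.0924% (13 of 14066) had 4 or more. The coding sequence of DICER1 has 5769 bases, and these shares were not adjusted for length. The 4 stretches are printed because the machinery is here itself a possible target, with the match in capitals.
DICER1 coding site 1, chr14:95574219-95574246, minus strand, exon 16 of 27: cagcatactgtgttCTACCTCttaatgt
DICER1 coding site 2, chr14:95570079-95570106, minus strand, exon 21: acccgtgcaaccaaCTACCTCatattcc
DICER1 coding site 3, chr14:95569971-95569998, minus strand, exon 21: aaatgctaacaaatCTACCTCagatgga
DICER1 coding site 4, chr14:95560437-95560464, minus strand, exon 24: gatgcgattttggaCTACCTCataacca
A match describes letters only. Whether let-7 acts on these stretches in AGS cells was not tested.

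The Argonautes differed among themselves. AGO2, the slicer, was the most abundant Argonaute in each group, with 40.6 TPM in si-NC against 45.5 TPM in si-FTO, with a log2 ratio of 0.16. AGO1 had 15.6 TPM in si-NC against 6.85 TPM in si-FTO, with a log2 ratio of -1.08, and 15.4% of the genes compared had a lower value. AGO4 had 11.8 TPM and 7.86 TPM, a log2 ratio of -0.53, and AGO3 had 8.40 TPM in each group. AGO1, AGO3 and AGO4 also bind microRNAs and take part in silencing without the strong slicer activity of AGO2. Relative to the shift the values were 0.33 for AGO2, 0.17 for AGO3, -0.36 for AGO4 and -0.91 for AGO1. AGO1 thus fell short of 2-fold relative to the shift, as it did after quantile normalization, at -0.91. It passed 2-fold only without such scaling, with 1 TPM added or, at -1.17, with 0.1 TPM added.

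Together the 4 Argonautes came to 76.3 TPM in si-NC against 68.6 TPM in si-FTO. AGO2 made up 53.2% of this sum in si-NC against 66.3% in si-FTO, while AGO1 made up 20.4% and 9.99%. AGO4 made up 15.4% and 11.5%, and AGO3 11.0% and 12.2%. The level of AGO2 over that of AGO1 was thus 2.61 in si-NC against 6.64 in si-FTO. These shares are of transcripts, and protein was not measured in the data used here.

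**Figure D2:**
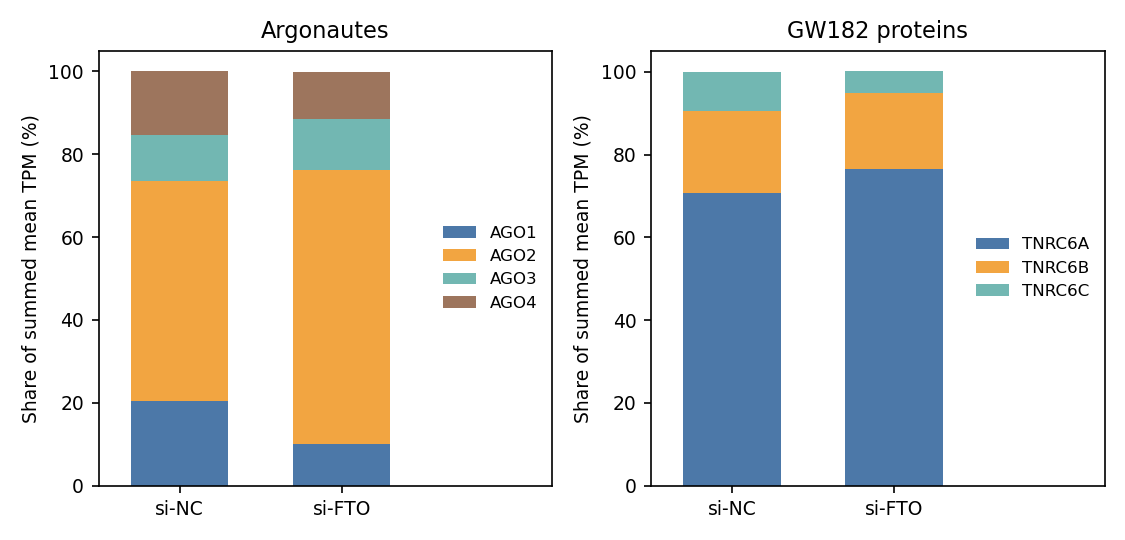
Stacked bars give, for si-NC and si-FTO, the share (%) of each Argonaute gene in the summed mean TPM of AGO1 to AGO4 (left) and of each GW182 gene in the summed mean TPM of TNRC6A, TNRC6B and TNRC6C (right). AGO2 takes 53.2% of the Argonaute sum in si-NC against 66.3% in si-FTO, while TNRC6A takes 70.8% and 76.5% of the GW182 sum.

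AGO4, AGO1 and AGO3 lie side by side on chromosome 1 in that order, at chr1:36273617-36323491, chr1:36335409-36396133 and chr1:36396319-36538101, all on the plus strand and within 264 kb. The gap between AGO1 and AGO3 is 185 bases. In spite of this the log2 ratios of these adjacent genes ran from -1.08 for AGO1 through -0.53 for AGO4 to 0.00 for AGO3. Paralogs can exchange reads in counting, so their transcripts were compared over stretches of 50 bases. Of the 50-base words of the AGO1, AGO2, AGO3 and AGO4 reference transcripts, 0 occurred in another Argonaute. For AGO1 and AGO2 0 occurred in a transcript of any other gene, and for AGO4 0.263% and for AGO3 1.76% did.

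TNRC6A, a GW182 protein that binds Argonaute and recruits deadenylases, had 46.2 TPM in si-NC against 38.4 TPM in si-FTO, with a log2 ratio of -0.26, or -0.09 relative to the shift. Its paralogs were less abundant. TNRC6B had 12.9 TPM in si-NC against 9.21 TPM in si-FTO, and TNRC6C had 6.19 TPM and 2.60 TPM. TNRC6A therefore made up 70.8% of the summed level of the 3 in si-NC and 76.5% in si-FTO. The 50-base words of TNRC6A, as of DROSHA, XPO5 and TARBP2, occurred in 0 transcripts of other genes. In DGCR8 1.68% of the words did, those of its own microRNA hairpins annotated as separate genes, and in DICER1 0.232%.

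Position on the chromosome was looked at for each of the 10 genes, through the 50 compared genes nearest to it. The 3 genes with the highest log2 ratios lay among neighbours with medians above 0. The median log2 ratio of the neighbours was 0.59 around DROSHA on chromosome 5, 0.48 around TARBP2 on chromosome 12 and 0.43 around AGO2 on chromosome 8. It was between -0.35 and -0.21 around the other 7 genes, with -0.35 around DGCR8 on chromosome 22 and -0.25 around AGO1. Of the 10 genes, 9 were below the median of their own neighbours and 1, AGO3, was above it, beside 50.2% below it among all 19953 compared genes placed in the same way. These are not 10 separate comparisons, since AGO1, AGO3 and AGO4 have 48 of their 50 neighbours in common. With the 20 nearest genes in place of 50, 3 (AGO3, DROSHA and TNRC6A) were above it and 7 below, beside 50.3% below among all genes. The gene farthest from its neighbours was AGO1, at 0.83 below their median, and 1 of those 50 neighbours had a lower log2 ratio. DROSHA and TNRC6A were within 0.10 of theirs.

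**Figure D3:**
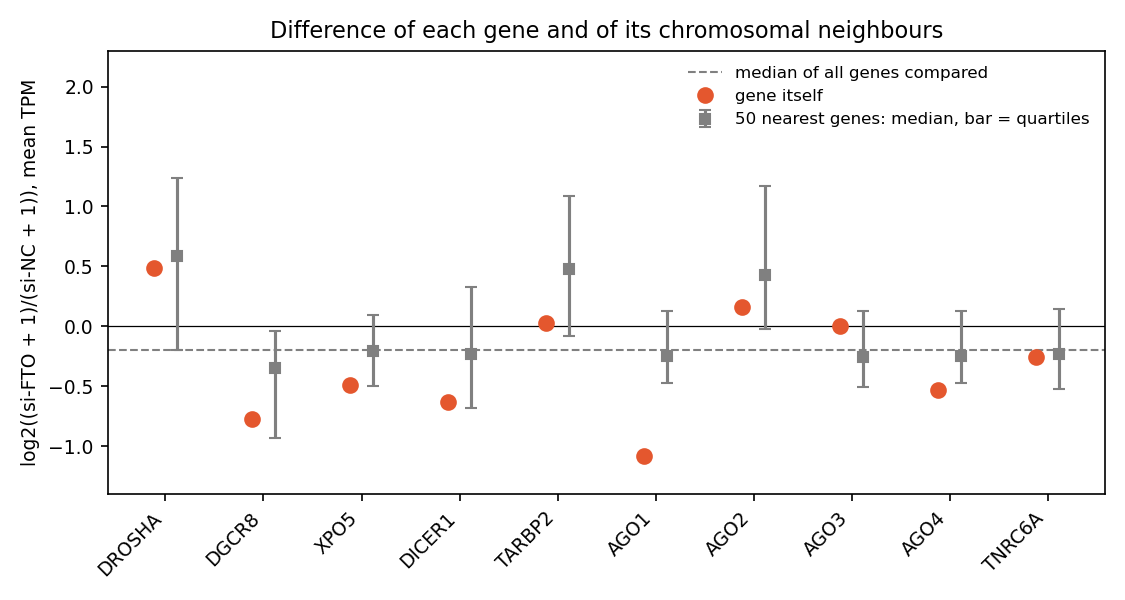
Orange points give the log2 ratio of si-FTO over si-NC (mean TPM + 1) of each of the 10 genes; grey squares give the median of the 50 nearest compared genes on the same chromosome, with bars from the lower to the upper quartile of those genes. The dashed line is the median of all genes compared, -0.20. The medians of the neighbours of DROSHA, TARBP2 and AGO2 lie above 0, and AGO1 and AGO4 lie under the lower quartile of their neighbours.

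The neighbours of TARBP2 included KRT8 and KRT18, markers of simple epithelium that were far higher in si-FTO, 551 and 548 kb away. Those of AGO1 included ZC3H12A, an RNase gene of the microRNA turnover list with a log2 ratio of 1.66. The part of chromosomal position, including DNA copy number, in the values of the 10 genes was not tested.

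The other genes of the pathway were taken from 8 lists, described by counts and medians beside those of all genes compared. The shares to read every count against are 59.7% lower and 39.8% higher, 17.0% at least 2-fold lower and 11.4% higher, and 31.2% at least 1.5-fold lower and 18.8% higher. Lower by any amount were 51.4% of all genes relative to the shift and 52.9% after quantile normalization. Of the 8 lists, 3 had a median under the -0.20 of all genes (6 with no minimum, where the median of all 58174 genes is 0.00): nuclear export, Dicer partners and RISC loading, and GW182 proteins and deadenylation. The other 5 were above it. Small differences depend on the scale: of the Microprocessor cofactors 12 of 14 were lower as deposited, 6 of 14 relative to the shift and 14 of 14 after quantile normalization, so that list has no settled direction. The corresponding counts were 14, 12 and 14 of 14 for Dicer partners and RISC loading, 13, 11 and 13 of 17 for GW182 proteins and deadenylation, and 9, 7 and 8 of 15 for translation block, decapping and decay. For nuclear export they were 5 of 6 on each of these scales.

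The 14 Microprocessor cofactors are RNA helicases and RNA-binding proteins that help DROSHA on particular transcripts. All 14 were compared, 12 were lower and 2 higher, 0 passed 2-fold and 3 were at least 1.5-fold lower, with a median log2 ratio of -0.14. As deposited the counts past a fold are under the shares of all genes (17.0% and 31.2%). After quantile normalization 5 of the 14 were at least 1.5-fold lower, beside 25.9% of all genes, a count somewhat above the background. No test of that difference was run, so it is not read as a result about the list. HNRNPA1, which binds the loop of some primary microRNAs, was the most abundant, with 990 TPM in si-NC against 929 TPM in si-FTO. KHSRP, which binds terminal loops including that of let-7, had the lowest log2 ratio, -0.98, with 682 and 345 TPM. The helicases DDX5 and DDX17 had log2 ratios of -0.08 and -0.93.

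Of the 6 nuclear export genes, 5 were lower and 1 higher, beside 59.7% and 39.8% of all genes, with a median of -0.38. RANBP1 (791 TPM in si-NC against 366 TPM in si-FTO) was the most abundant. RANGAP1, the activator of the GTPase Ran, had 208 TPM and 94.1 TPM, the lowest log2 ratio of the list, -1.14. These 2 passed 2-fold as deposited, beside 17.0% of all genes. Relative to the shift RANGAP1 was at -0.96 and RANBP1 at -0.94, and 0 of the 6 passed it, beside 13.8%. After quantile normalization both did, at -1.18 and -1.14, beside 14.2%. No test was run on these few genes, so the counts are not read as a result about the list. RAN itself had 304 TPM and 344 TPM, the only 1 of the 6 above 0, at 0.18.

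Of the 14 Dicer partners and genes of RISC loading, 14 were lower in si-FTO and 0 higher, beside 59.7% lower among all genes. At least 1.5-fold lower were 4 and at least 2-fold lower 1, beside 31.2% and 17.0% of all genes. The counts past a fold are thus near or under the background. No test was run, so the count of 14 is not read as a result about the list. The median log2 ratio was -0.43, and -0.26 relative to the shift between the groups. The chaperone HSPA8, which with HSP90 opens the Argonaute for the duplex, was the most abundant, with 2346 TPM in si-NC against 1957 TPM in si-FTO. TSN, a subunit of the C3PO nuclease that removes the passenger strand, had 96.3 TPM and 45.2 TPM, a log2 ratio of -1.08, the only 1 past 2-fold, and short of it relative to the shift, at -0.91, though not after quantile normalization, at -1.06. Its partner TSNAX had -0.81. ADAR, the RNA-editing enzyme, was the closest to 0 at -0.03, and PRKRA, the other RNA-binding partner of Dicer, had -0.04.

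Among the 17 genes of GW182 proteins and deadenylation, 13 were lower and 3 higher, 1 was past 2-fold and 7 at least 1.5-fold lower, and the median was -0.45. Among all genes 59.7% were lower, 17.0% at least 2-fold and 31.2% at least 1.5-fold. The count past 2-fold is thus under the background and the count past 1.5-fold somewhat above it. Relative to the shift 4 were at least 1.5-fold lower, beside 24.3% of all genes, and after quantile normalization 6, beside 25.9%. No test of these differences was run, so they are not read as a result about the list. CNOT3, a subunit of the CCR4-NOT deadenylase, had 85.1 TPM in si-NC against 31.8 TPM in si-FTO, with a log2 ratio of -1.39. TNRC6C was 2.38-fold lower in TPM and passed 2-fold with 0.1 TPM added, at -1.22. With 1 TPM added it fell just short of 2-fold as deposited. It was further short relative to the shift, at -0.83, and after quantile normalization, at -0.70. PABPC1, the poly(A)-binding protein and the most abundant of the list, had 663 and 566 TPM. PAN2, a subunit of the other deadenylase of this list, had the highest log2 ratio, 0.21.

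The 15 genes of translation block, decapping and decay had a median of -0.15, with 9 lower and 6 higher, close to the shares of all genes. That median depends on the scale. With 0.1 TPM added it was -0.35 (all genes -0.25), and at a minimum of 5 TPM -0.25 (all genes -0.18). Relative to the shift it was 0.02 (all genes -0.03), and after quantile normalization -0.02 (all genes -0.07). AJUBA, a LIM-domain protein that binds Argonaute, was the only 1 past 2-fold, with 15.5 TPM in si-NC against 36.8 TPM in si-FTO. DCP1B, a cofactor of decapping, had the lowest log2 ratio, -0.92. MOV10, a helicase found with Argonaute, was the most abundant by the mean of the groups, with 69.4 TPM and 83.6 TPM.

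The genes of precursor and microRNA turnover ran from a log2 ratio of -5.39 to 1.66. Of the 13 of 14 compared, 6 were lower and 7 higher, with a median of 0.07. LIN28B, which binds let-7 precursors and blocks their maturation, had 41.2 TPM in si-NC against 0.00563 TPM in si-FTO, with a log2 ratio of -5.39, and 49 of the 20493 genes compared had a lower value. Its paralog LIN28A was listed at 0 in each group. TRIM71, a let-7 target in early development that binds RNA and Argonaute, had 5.17 TPM in si-NC and was listed at 0 in si-FTO. ZC3H12A, an RNase that can cut precursor loops, had 9.65 TPM and 32.6 TPM, a log2 ratio of 1.66. The terminal uridylyltransferases TUT4 and TUT7, which act with LIN28 on let-7 precursors, had log2 ratios of 0.38 and 0.11, and DIS3L2, which degrades the uridylated precursors, had 0.16. SND1 was the most abundant of the list, with 207 and 252 TPM.

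LIN28B and TRIM71 are textbook targets of let-7. The 3′ UTR of LIN28B held 4 matches to the seed and that of TRIM71 held 6, whereas 10.9% of the 14066 compared genes with a 3′ UTR held at least 1. Of the 10 genes, 4 held at least 1 in the 3′ UTR (2 in AGO2 and 1 each in AGO1, AGO3 and TARBP2). The 3′ UTRs of AGO1, AGO2 and AGO3 are long, with 10925, 11888 and 16755 bases against a median of 1072 over all genes with a 3′ UTR, and that of TARBP2 has 283. The share was not adjusted for length. The first site of LIN28B and the 3 sites of TRIM71 nearest to each other are shown, in GRCh37, with the match in capitals.
LIN28B site 1, chr6:105526688-105526715, plus strand, 3′ UTR: cccggttgcaaagtCTACCTCatgcaag
TRIM71 site 4, chr3:32937298-32937325, plus strand, 3′ UTR: cttttgctgagtttCTACCTCacttgtg
TRIM71 site 5, chr3:32937321-32937348, plus strand, 3′ UTR: ttgtggcaagtcatCTACCTCatgttag
TRIM71 site 6, chr3:32937396-32937423, plus strand, 3′ UTR: gtgggagtgggaagCTACCTCtaaaaga

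**Figure D4:**
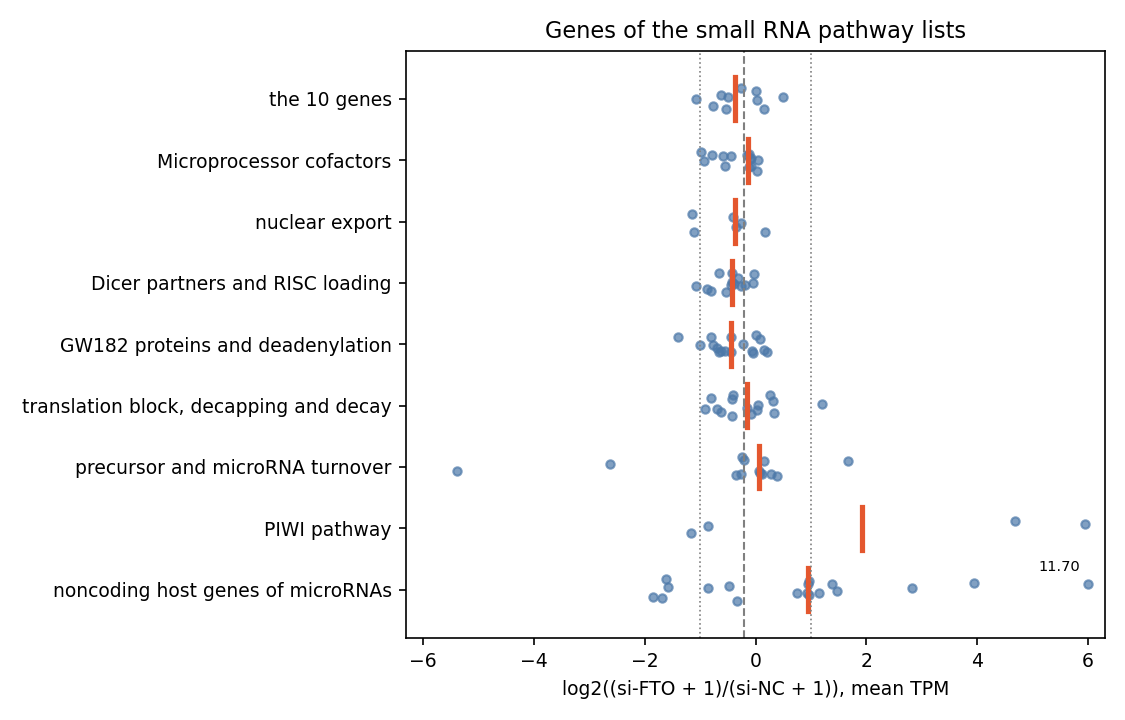
Each blue point is a gene of a pathway list that passed 0.5 TPM, at its log2 ratio of si-FTO over si-NC (mean TPM + 1); vertical position within a list has no meaning. Orange bars are list medians, the dashed line is the median of all genes compared (-0.20) and dotted lines mark 2-fold; H19, at 11.70, is drawn at the right edge. The 10 genes lie between -1.08 and 0.49.

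Transcripts of the PIWI genes, which encode the germline counterparts of the Argonautes, were close to absent. Of the 16 genes of their pathway, 12 were under 1 TPM in each group, among them PIWIL1, PIWIL2, PIWIL3 and PIWIL4, of which the highest value was 0.247 TPM, and 4 passed the minimum of 0.5 TPM. HENMT1, the methyltransferase that protects the 3′ end of piRNAs, was listed at 0 in si-NC and had 60.2 TPM in si-FTO. TDRD9, a helicase of the pathway, had 0.00180 TPM and 24.8 TPM. PLD6, a mitochondrial nuclease, was lower, with 23.9 TPM and 10.1 TPM (past 2-fold as deposited and, at -1.06, after quantile normalization, but at -0.99 relative to the shift), and TDRKH had 16.0 TPM and 8.43 TPM. The median of these 4 was 1.92, and over all 16 genes without the minimum it was -0.01.

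Host transcripts of microRNAs can be read in these libraries although the mature microRNAs cannot. Of 26 noncoding host genes, 18 were compared. Of these, 11 were higher and 7 lower in si-FTO, beside 39.8% and 59.7% of all genes. At least 2-fold higher were 6 and at least 2-fold lower 4, beside 11.4% and 17.0% of all genes. Among the 6, MIR100HG, MIRLET7BHG and MIR31HG reached 0.5 TPM in si-FTO only, and among the 4, MIR34AHG did so in si-NC only. Of the other higher hosts, MIR181A2HG (0.237 and 1.42 TPM) and MIR29B2CHG (0.0969 and 0.833 TPM) also reached it in si-FTO only. These counts thus rest in part on the minimum. They also depend on the scale at these low levels: with 0.1 TPM added in place of 1, 11 were at least 2-fold higher and 5 lower, beside 16.0% and 25.1% of all genes, and relative to the shift 10 were higher. Their median log2 ratio was 0.94, but 0.00 over all 26 with no minimum. Among those with at least 5 TPM in a group it was -0.33, so the direction of the list changed with the minimum. H19, an imprinted transcript that holds miR-675, had 1.34 TPM in si-NC against 7791 TPM in si-FTO, and MIR4435-2HG had 6.93 TPM and 121 TPM. FTX had 5.25 TPM and 15.3 TPM, and MIR31HG 0.477 TPM and 2.27 TPM. In the other direction, MIR503HG, host of miR-503, had 48.1 TPM and 12.6 TPM. MIR222HG, host of miR-221 and miR-222, had 24.5 TPM and 6.98 TPM. MIR17HG, host of the miR-17 to miR-92a cluster, had 15.0 TPM and 4.19 TPM, and MIR34AHG, host of miR-34a, had 2.36 TPM and 0.126 TPM.

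The 3 noncoding hosts of let-7 on the list were higher in si-FTO, at low levels, as were 39.8% of all genes. Other let-7 loci were not looked at. MIR100HG, which holds let-7a-2 with miR-100 and miR-125b-1, was listed at 0 in si-NC and had 6.07 TPM in si-FTO. MIRLET7BHG, which holds let-7a-3 and let-7b, had 0.474 TPM and 3.07 TPM, a log2 ratio of 1.47. MIR99AHG, which holds let-7c with miR-99a and miR-125b-2, had 2.67 TPM and 6.18 TPM, a log2 ratio of 0.97. MIR100HG and MIRLET7BHG reached the minimum of 0.5 TPM in si-FTO only. LIN28B, the inhibitor of let-7 maturation, had its higher level in si-NC, and a link between it and these hosts was not tested. The amount of mature let-7 in either group is not known from these data.

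**Figure D5:**
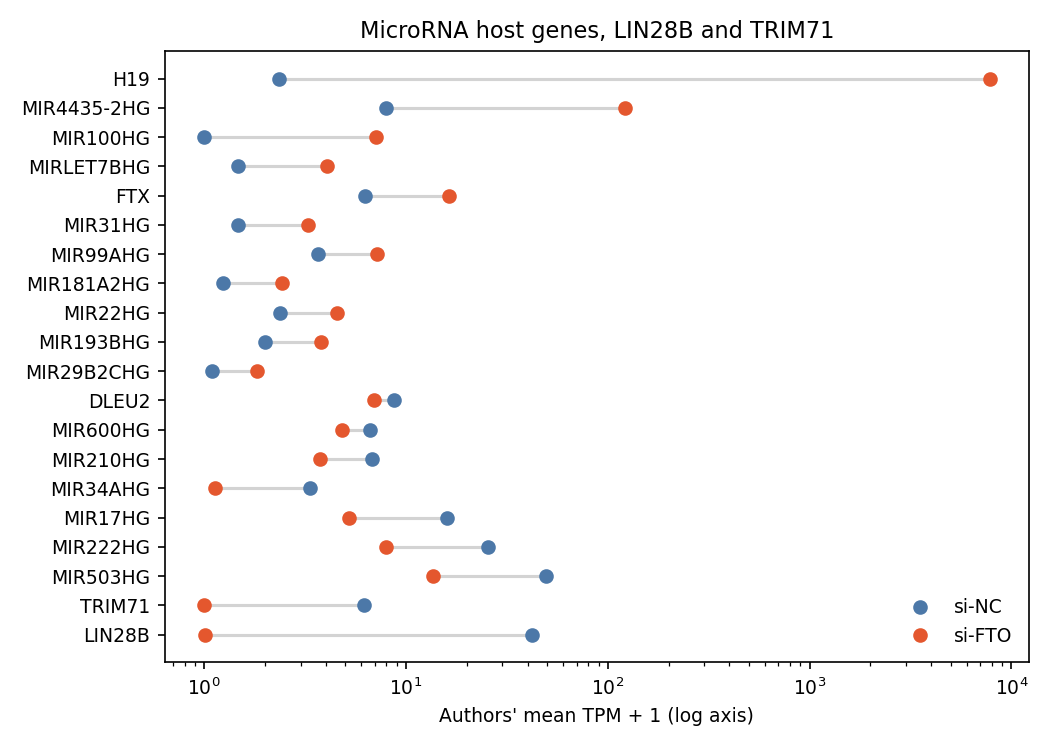
For each microRNA host gene that passed 0.5 TPM, and for LIN28B and TRIM71, points give the authors' mean TPM + 1 on a log axis in si-NC (blue) and si-FTO (orange), joined by a grey line; a point at 1 stands for a gene at or near 0. H19 is the farthest to the right in si-FTO (7791 TPM), and LIN28B (41.2 TPM in si-NC) and TRIM71 lie at 1 in si-FTO.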

How the data were processed

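RNA of AGS cells was sequenced in 3 si-NC and 3 si-FTO libraries made with a stranded kit. The deposited TPM values are the authors' means per group, 1 column each. The study's methods name Bowtie and RSEM on hg19, whereas the submitters' processing notes name HISAT2 and hg19. Versions, the annotation release and the strand setting are not given in the sources used here. Depth is unknown, since TPM keeps none. The authors' fold change, p and q columns, and a second table made from them, were not used.

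The members and gene lists were chosen with earlier results of these data known. Symbols matched 55726 of 58174 identifiers. A gene was compared with at least 0.5 TPM in at least 1 group, 0.0001 was read as 0, and a pseudocount of 1 was added. A fit over libraries had been planned if values per library could be had, and with 1 mean per group no test was run. A log2 ratio under 0.005 in size counts as neither higher nor lower. Genes named are the 10 members, FTO, and per list the most abundant, the highest and lowest log2 ratio and all past 2-fold; others were chosen after their values were seen. Some genes covered by this rule are not reported here. Gene and site coordinates are from GRCh37 with the lifted GENCODE annotation, as a match made here, and microRNA sequences from RefSeq (GRCh38.p14). For each gene the transcript marked canonical was used. Alternatives were a pseudocount of 0.1, median-ratio scaling, quantile normalization, no minimum, a minimum of 5 TPM, 0.0001 kept as a value, and 20 or 100 neighbours. The calculations used Python 3.11.15, numpy 2.4.6 and pandas 2.3.3 and were tested on simulated data.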

Additional observations from a re-analysis of the deposited data

How the results depend on the processing

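No paired analysis was possible because the table holds 1 mean per group, although the libraries are numbered alike in each group. For the same reason leaving out each replicate in turn could not be run, and the unknown depth and spread between libraries limit every value. The number of the 10 genes lower in si-FTO was 6 under each of the 4 alternatives run for it. The count at least 2-fold lower went from 1 to 0 with median-ratio scaling and to 0 with quantile normalization, and the count at least 1.5-fold higher went from 0 to 1 with median-ratio scaling. That scaling removes a shift of -0.17, which moves the median of the 10 from -0.38 to -0.20. Among all genes, 2340 were at least 2-fold higher and 3492 lower (40.1% of these calls higher), compared with 2848 and 2823 (50.2%) after median-ratio scaling. At a minimum of 5 TPM fewer genes entered: 2254 were at least 2-fold lower, 3948 at least 1.5-fold lower (6397 before) and 2569 at least 1.5-fold higher (3855 before). The number of the 8 lists with a median under that of all genes was 3, and 6 with no minimum and 5 at a minimum of 5 TPM. The median of all genes itself moves with the minimum, from -0.20 to 0.00 with none and -0.18 at 5 TPM, so lists whose own median did not move, such as the Microprocessor cofactors at -0.14, change sides with no minimum. The median of the PIWI genes turned to -0.01 with no minimum, because other genes enter or leave. For the same reason that of the host genes turned to 0.00 with no minimum and to -0.33 at 5 TPM. Without AGO4 in the sum, by construction, AGO2 made up 62.9% in si-NC and 74.9% in si-FTO. With the 20 nearest genes, 3 of the 10 were above their neighbours in place of 1; the cause was not tested. Of 143 single genes, 0 that were past 1.5-fold changed sign under the 4 settings run. The settings named next were among the alternatives listed for the pathway lists, but the counts of list genes past a fold under them were computed only after the values had been seen. With median-ratio scaling the count at least 2-fold lower became 0 for nuclear export, for Dicer partners and RISC loading and for PIWI genes (2, 1 and 1 before), and the GW182 genes at least 1.5-fold lower went from 7 to 4. Host genes at least 2-fold higher went from 6 to 11 with a pseudocount of 0.1 and to 10 with either scaling. The GW182 genes at least 2-fold lower were 2 with that pseudocount. With quantile normalization 1 Microprocessor cofactor was at least 2-fold lower and 5 at least 1.5-fold lower, beside 14.2% and 25.9% of all genes.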

Other observations

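The genes in the next lines were grouped by seed matches after the values of LIN28B and TRIM71 had been seen, so the grouping is a description. Of 14066 compared genes with an annotated 3′ UTR, 12526 held 0 matches to the let-7 seed (CTACCTC) there, with a median log2 ratio of -0.21. The 1357 genes with 1 match had a median of -0.32, the 150 with 2 matches -0.28 and the 33 with 3 or more -0.89. At least 2-fold lower in si-FTO were 18.6%, 22.5%, 22.7% and 45.5% of these groups, and at least 2-fold higher were 12.4%, 8.99%, 10% and 0%. LIN28B and TRIM71 are themselves among the 33, and without them the median of the other 31 was -0.85, with 41.9% at least 2-fold lower. The median of the 33 also depends on the scale, from -0.63 after quantile normalization and -0.72 with median-ratio scaling to -1.24 with a pseudocount of 0.1 and -1.30 at a minimum of 5 TPM. In the same order the genes with 0 matches had -0.12, -0.04, -0.23 and -0.17. Of the 33, 9 (27.3%) reached 0.5 TPM in si-NC only and 0 in si-FTO only, against 11.7% and 5.14% of the genes with 0 matches, so the values of the group rest in part on the minimum. With no minimum the group has 36 genes with a median of -0.74 and 41.7% at least 2-fold lower, against -0.03 and 13.5% of 17277 genes with 0 matches. These alternatives were chosen after the data had been seen. The groups also differ in the median length of the 3′ UTR (1118, 2814, 4659 and 6701 bases), and its part was not tested. Among the 33 genes, HMGA2, a chromatin protein of embryonic tissues, had 59.6 TPM in si-NC against 0.488 TPM in si-FTO. IGF2BP1, an RNA-binding protein, had 99.4 TPM and 10.4 TPM. LIMD2 had 17.0 TPM and 0.596 TPM, and IGDCC3 had 10.4 TPM and 0.0149 TPM. HMGA2, IGF2BP1, LIMD2 and IGDCC3 are among the lowest log2 ratios of the 33, and HMGA2 and IGDCC3 reached 0.5 TPM in si-NC only. SMC1A (239 and 190 TPM) and RALY (123 and 159 TPM) were the most abundant of the 33 in si-FTO, with log2 ratios of -0.33 and 0.36.

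Hairpin genes of microRNAs are listed in the table. Of 1173 of them, 242 were above 0 in si-NC against 230 in si-FTO, and 67 reached 1 TPM in either group.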
